A study of Mus musculus with 6 samples.

Results

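Transcripts of 9 genes of TGF-β and activin signaling were measured in cultured EMT6 cells. They are the ligand genes Tgfb1, Tgfb2, Tgfb3 and Inhba, the receptor genes Tgfbr1 and Tgfbr2, the SMAD genes Smad3 and Smad7, and Fst, the gene for the activin antagonist follistatin. They were chosen by name, with earlier results of these data known. Each matched a single row by its Ensembl identifier, and they make up 9 of 53465 gene rows in the deposited table. All 9 had enough counts to be tested.

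EMT6 is a mouse mammary carcinoma line, and polyadenylated RNA was sequenced from 6 samples of it. In the 3 P-VITRO samples (parental) the cells had been kept with an isotype control antibody, and in the 3 PTR-VITRO samples with an antibody against PD-L1, a ligand that restrains T cells. Both antibodies were used at 0.5 μg/ml for more than 4 weeks, in medium and without host tissue or added immune cells, so both groups come from the same line and, per the labels, differ in the antibody. The comparison asks which transcripts differ after long exposure of tumor cells to anti-PD-L1 in culture.

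TGF-β ligands are secreted in a latent form and, once released, bring the receptors TGFBR2 and TGFBR1 together. The activated receptor phosphorylates SMAD2 and SMAD3, which enter the nucleus with SMAD4 and change transcription of matrix, cytoskeletal and cell cycle genes. Activin A, a homodimer of the Inhba product, uses other receptors but feeds into the same SMADs, and follistatin binds and neutralises it. SMAD7 is induced by the pathway and blocks its receptors. In carcinomas the pathway is known for restraining growth in some settings and for promoting mesenchymal traits and immune evasion in others.

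None of the 9 genes passed the test across all genes, in which 35 of 14217 tested genes (0.246%) had an adjusted p below 0.05 (edgeR quasi-likelihood test, Benjamini-Hochberg over all tested genes). Tgfb2 came closest, with lower levels in all 3 PTR-VITRO libraries, a log2 fold change of -0.48 ± 0.09 (SE) and an adjusted p of 0.0585. Tgfbr2 and Smad3 were also lower in every PTR-VITRO library (log2 fold changes of -0.11 and -0.12), with adjusted p of 0.320 and 0.281. The other 6 genes had overlapping groups. At an unadjusted p below 0.05, 3 of the 9 passed and all 3 lay lower in PTR-VITRO, where 6.13% of all tested genes passed in that direction and 11.4% in either. DESeq2 called 1 of the 9, Tgfb2, and 111 genes over the whole table. The limma-voom fit called 0 of the 9 and 31 genes over the whole table.

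The libraries held 17757341 to 32426739 counts, and a count of 3 corresponded to 0.0925 to 0.169 CPM (counts scaled to library size, with upper quartile factors). The labels do not say whether the libraries of a group came from separate cultures, and the study treats replicates as technical where it gives no other description, so the p-values measure only the spread between these libraries. In bulk RNA, fewer cells with a transcript and less of it per cell cannot be told apart. Of 7 markers of the line, Krt8, Krt18 and Vim were abundant while Cdh1 and Cdh2 were at or near 0 in both groups. Krt18 (log2 fold change 0.17, unadjusted p 0.00136) and the weakly detected Epcam (0.48, unadjusted p 0.0351) were higher in every PTR-VITRO library, but neither was called, and their part in the results was not tested. The 5 immune markers summed to at most 0.0668 CPM in any library, with Ptprc and Adgre1 at 0 in all 6. The 3 endothelial markers summed to at most 0.257 CPM.

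Among the TGF-β ligands, Tgfb1 encodes the isoform most often studied in tumors. It is annotated at chr7:25687002-25705077 (plus strand; mouse genome GRCm38, as for all positions here). It measured 46.8, 50.3 and 49.95 CPM in P-VITRO and 49.4, 46.8 and 42.9 CPM in PTR-VITRO. The groups overlapped, with the lowest value in a PTR-VITRO library. The log2 fold change was -0.07 ± 0.06 with a 95% interval from -0.20 to 0.05.

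Tgfb2, at chr1:186622792-186705989 on the minus strand, encodes the isoform that needs the co-receptor betaglycan for efficient receptor binding. It measured 13.1, 13.3 and 11.3 CPM in P-VITRO, from 306, 398 and 273 counts. In PTR-VITRO it measured 8.79, 9.04 and 9.37 CPM, from 285, 256 and 167 counts. Every PTR-VITRO library was lower than every P-VITRO library, and the PTR-VITRO libraries lay close together (mean 9.07 ± 0.292 SD, n = 3, against 12.6 ± 1.10). The fitted change was -28.1%, with a 95% interval of the log2 fold change from -0.67 to -0.28. By unadjusted p it ranked at place 56 of 14217. Its adjusted p was 0.0236 with DESeq2 and 2.09e-04 with no filter on low counts, settings that called 111 and 400 genes over the whole table. The adjusted p of Tgfb2 ran from 0.0900 to 0.299 when 1 library was left out. An antisense gene that overlaps it, Gm29491, had at most 1 count in a library.

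Tgfb3, at chr12:86056745-86079041 on the minus strand, encodes the isoform known from palate development. It measured 25.3, 17.9 and 22.6 CPM in P-VITRO and 24.1, 19.7 and 16.1 CPM in PTR-VITRO. No other gene of the 9 varied as much within a group, with a coefficient of variation of 16.9% in P-VITRO and 20.0% in PTR-VITRO. Its log2 fold change of -0.11 ± 0.14 was smaller than this spread, and the 95% interval ran from -0.42 to 0.21. Its sign turned without P-VITRO replicate 1 (0.013) and without PTR-VITRO replicate 3 (0.014). Its counts were estimates rather than whole numbers, and the opposite-strand gene Gm37804 held up to 17 counts in a library.

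Inhba encodes the βA subunit of activin A and of inhibin A, and lies at chr13:16011851-16031621 on the plus strand. It measured 206.7, 248.5 and 220.5 CPM in P-VITRO and 208.1, 229.3 and 251.3 CPM in PTR-VITRO. Both groups covered nearly the same range, and the log2 fold change was 0.02 ± 0.07 (95% interval -0.14 to 0.19). Leaving out P-VITRO replicate 1 or PTR-VITRO replicate 3 turned its sign, to -0.029 and -0.040.

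Of the receptors, Tgfbr2 encodes the ligand-binding kinase and lies at chr9:116084293-116175360 on the minus strand. It measured 300.3, 324.6 and 298.1 CPM in P-VITRO and 284.1, 289.6 and 284.1 CPM in PTR-VITRO. The highest PTR-VITRO library was below the lowest P-VITRO library by less than the spread within P-VITRO (SD 14.7 CPM). The fitted change was -7.09%, with a log2 fold change of -0.11 ± 0.04 and a 95% interval from -0.19 to -0.02.

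Tgfbr1, the gene of the signaling receptor that phosphorylates the SMADs, lies at chr4:47353222-47414931 on the plus strand. It measured 13.4, 13.3 and 12.8 CPM in P-VITRO and 11.8, 12.3 and 14.4 CPM in PTR-VITRO. The lowest and the highest value were both in PTR-VITRO libraries, and the log2 fold change was -0.05 ± 0.09 (95% interval -0.24 to 0.14). Without PTR-VITRO replicate 1 it was 0.0078.

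Smad3 encodes the receptor-activated SMAD that binds DNA directly, at chr9:63646767-63757994 on the minus strand. It measured 110.5, 110.6 and 106.0 CPM in P-VITRO and 103.6, 99.0 and 98.4 CPM in PTR-VITRO. The groups did not overlap, and the gap between them was slightly narrower than the SD within either group (2.66 and 2.84 CPM). The fitted change was -7.94%, with a log2 fold change of -0.12 ± 0.04, an unadjusted p of 0.0125 and a 95% interval from -0.21 to -0.03.

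**Figure D1:**
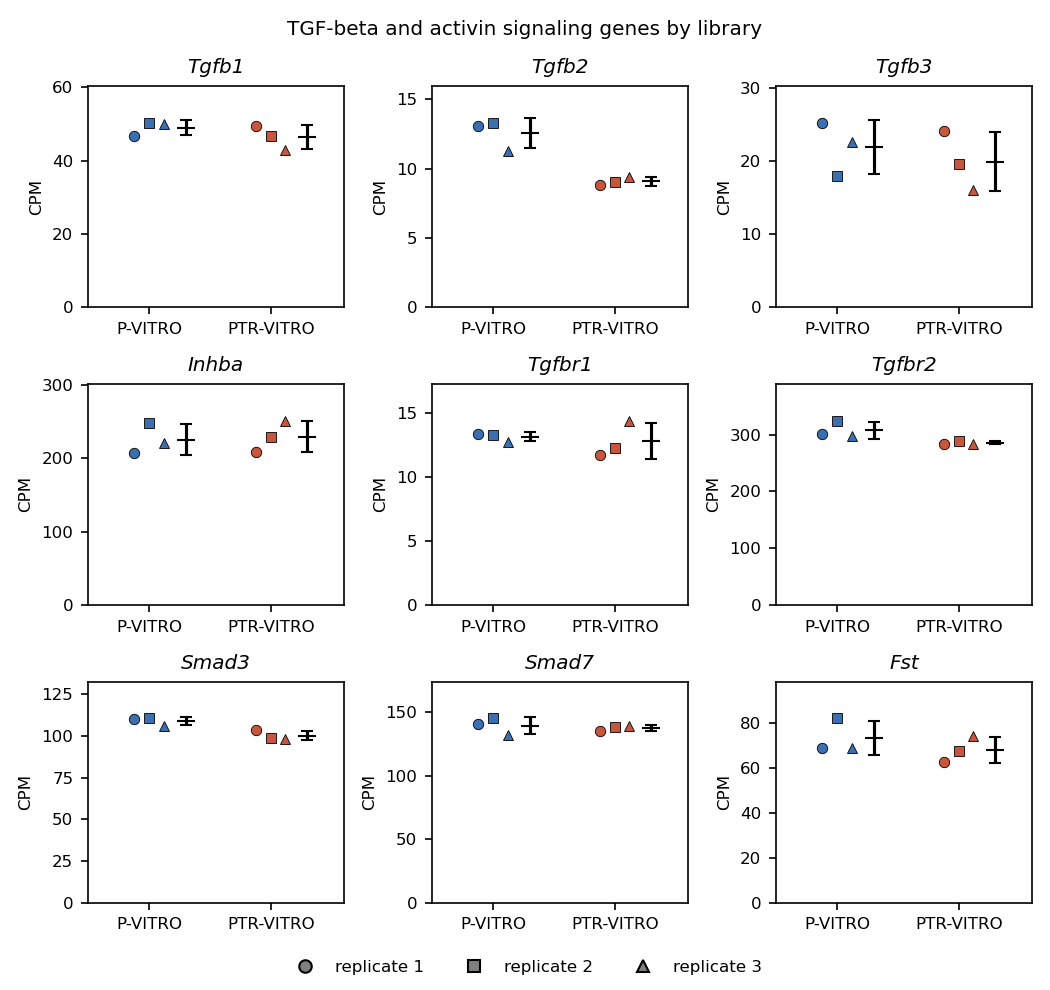
CPM of each of the 9 genes in the 6 libraries, with circles, squares and triangles for replicates 1, 2 and 3 and the mean and SD of each group beside them. Every axis starts at 0; the PTR-VITRO points of Tgfb2, Tgfbr2 and Smad3 all lie below the P-VITRO points, and the other 6 panels overlap.

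The groups did not overlap in 3 of the 9 genes, all lower in PTR-VITRO, and in 9.33% of all tested genes every PTR-VITRO library was lower in this way (17.6% in either direction). The 9 genes were chosen by name, with earlier results of these data known, so these counts are a description and were not tested. Of the 9 fitted fold changes 8 were below 0, with a median of -0.11, against a median of -0.0040 over all tested genes, of which 7324 were below 0 and 6893 above. With PTR-VITRO replicate 3 left out, the shallowest library, Tgfbr1 and Fst also stopped overlapping and the count was 5, where 13.2% of all tested genes were lower without overlap.

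Because these 3 genes shared a direction, the 250 bases before their RefSeq start sites are shown (GRCm38.p6, gene strand, 5′ to 3′). Capitals mark the letters CAGAC, which form the core of the SMAD box, and those of a TATA box, where the window holds them. The Tgfb2 window is chr1:186705990-186706239, the Tgfbr2 window chr9:116175364-116175613 and the Smad3 window chr9:63757995-63758244, all on the minus strand.
Tgfb2: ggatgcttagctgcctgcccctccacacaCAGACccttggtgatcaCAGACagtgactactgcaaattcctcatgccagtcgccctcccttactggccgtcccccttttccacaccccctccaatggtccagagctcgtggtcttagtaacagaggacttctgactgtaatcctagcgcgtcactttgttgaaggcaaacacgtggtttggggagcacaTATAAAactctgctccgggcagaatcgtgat
Tgfbr2: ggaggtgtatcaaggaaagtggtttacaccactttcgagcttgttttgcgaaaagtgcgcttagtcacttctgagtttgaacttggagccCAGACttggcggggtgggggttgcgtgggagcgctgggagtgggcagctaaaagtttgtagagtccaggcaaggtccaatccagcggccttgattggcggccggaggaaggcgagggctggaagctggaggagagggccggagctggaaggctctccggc
Smad3: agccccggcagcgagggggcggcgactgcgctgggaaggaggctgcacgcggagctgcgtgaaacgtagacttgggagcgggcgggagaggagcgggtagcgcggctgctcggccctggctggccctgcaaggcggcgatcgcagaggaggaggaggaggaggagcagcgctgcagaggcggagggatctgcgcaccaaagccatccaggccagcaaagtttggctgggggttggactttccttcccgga

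Both strands of each window were searched. The SMAD box core was found in the Tgfb2 window at 221 to 217 and at 204 to 200 bases before the start, and in the Tgfbr2 window at 160 to 156 bases before it. The TATA box, searched as TATAAA, was found in the Tgfb2 window at 31 to 26 bases before the start. That window overlaps an exon of Gm29491. The Smad3 window held none of the motifs searched. The others searched were the palindromic SMAD element GTCTAGAC, the AP-1 site TGANTCA and the cyclic AMP response element TGACGTCA. Of the 9 genes 6 had an entry in the promoter table. These 6 had 7 windows, since Tgfbr1 has a pair of start sites. The SMAD box core was in a window of 3 of the 6 genes (for Tgfbr1, in 1 of its windows), the TATA box in 2, and the other motifs in 0. Counted by window and not by gene, among all 32851 windows of the same length 42.2% held the SMAD box core, 12.4% the TATA box, 6.75% the AP-1 site, 1.55% the cyclic AMP response element and 0.167% the palindromic element. A match is a string of letters and not a measured site.

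Fst encodes follistatin, which binds activin outside the cell, and lies at chr13:114452290-114458951 on the minus strand. It measured 68.8, 81.9 and 68.6 CPM in P-VITRO and 62.6, 67.4 and 73.9 CPM in PTR-VITRO. A PTR-VITRO library lay above a pair of the P-VITRO libraries, so the groups overlapped, and the log2 fold change was -0.11 ± 0.08 (95% interval -0.28 to 0.06). The overlapping antisense gene Gm47040 had at most 1 count.

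Smad7, the gene of the inhibitory SMAD and a direct target of the pathway, measured 140.4, 144.9 and 131.8 CPM in P-VITRO. In PTR-VITRO it measured 135.0, 138.3 and 139.3 CPM, all inside the P-VITRO range. The log2 fold change was -0.02 ± 0.04, with a 95% interval of -0.11 to 0.08, and it was 0.015 without P-VITRO replicate 2.

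Levels of different genes were compared as CPM per kilobase of merged exons. On that scale Tgfbr2 (37.6 ± 1.80 SD, n = 3) and Inhba (35.2 ± 3.34) stood highest in P-VITRO and did not differ beyond their spread. Smad7 followed at 30.8 ± 1.47, then Smad3 at 19.7 ± 0.480 and Fst at 15.9 ± 1.66. The TGF-β ligands were lower, with Tgfb1 at 9.72 ± 0.386, Tgfb3 at 6.48 ± 1.10 and Tgfb2 at 2.17 ± 0.191, and Tgfbr1 stood at 2.02 ± 0.0519, within the spread of Tgfb2. In PTR-VITRO Tgfb2 stood at 1.57 ± 0.0505, below Tgfbr1 at 1.96 ± 0.217. The order rests on the length used: per mean transcript length Smad7 and Smad3 came first, at 85.7 ± 4.11 and 76.4 ± 1.86 in P-VITRO.

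**Figure D2:**
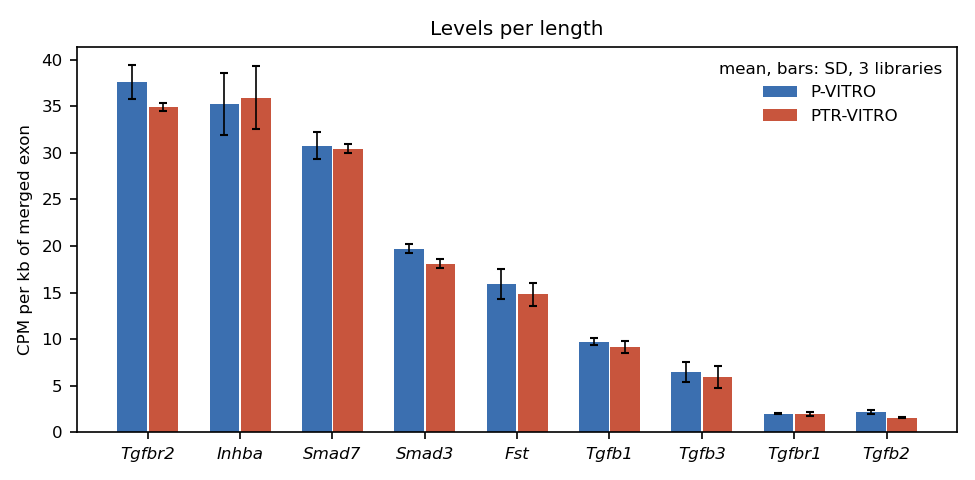
Mean CPM per kilobase of merged exons of the 9 genes in P-VITRO (blue) and PTR-VITRO (red), with bars for the SD over 3 libraries, on an axis from 0. Tgfbr2, Inhba and Smad7 stand highest and Tgfb2 and Tgfbr1 lowest in both groups.

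The Tgfbr2 transcript exceeded that of its partner Tgfbr1 by 18.7 ± 0.783-fold in P-VITRO and 17.9 ± 1.94-fold in PTR-VITRO per kilobase of merged exons, and by 10.1 ± 0.425-fold and 9.74 ± 1.05-fold per mean transcript length. Of the summed TGF-β ligand level per merged length, Tgfb1 made up 53.0% ± 4.00 in P-VITRO and 55.3% ± 2.05 in PTR-VITRO, Tgfb3 35.2% ± 4.62 and 35.2% ± 3.35, and Tgfb2 11.8% ± 1.27 and 9.49% ± 1.32, all with overlap. These shares rest on the length used. Per mean transcript length Tgfb1 made up 74.8% ± 2.34 and 77.6% ± 0.495 and Tgfb2 13.0% ± 1.19 and 10.3% ± 1.12, both without overlap, and Tgfb3 12.2% ± 2.16 and 12.1% ± 1.54. Per merged length Smad7 exceeded Smad3 by a ratio of 1.56 ± 0.0409 in P-VITRO against 1.68 ± 0.0739 in PTR-VITRO, with overlap. Per mean transcript length the ratio was 1.12 ± 0.0294 against 1.21 ± 0.0530, also with overlap.

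The ratio of the activin gene Inhba to its antagonist Fst, per kilobase, ran 2.16, 2.18 and 2.31 over the P-VITRO libraries and 2.39, 2.44 and 2.44 over the PTR-VITRO libraries. All 3 PTR-VITRO ratios were above the P-VITRO ratios although each gene alone overlapped, and the change of length scale rescales the ratio without changing this. The ratio needs no scaling between libraries. It was 1 of 6 ratios and shares computed and was not tested.

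Across the 6 libraries Inhba and Fst had a Pearson correlation of 0.807 on log2 CPM (Spearman 0.543), which was 0.339 without the 2 libraries farthest from the Inhba median. Inhba and Tgfb3 ran in opposite order, with a Pearson correlation of -0.981 and a Spearman correlation of -1.0, and -0.968 over the 4 libraries left. From lowest to highest Inhba the libraries were P-VITRO 1, PTR-VITRO 1, P-VITRO 3, PTR-VITRO 2, P-VITRO 2 and PTR-VITRO 3, which alternates between the groups. In that order the libraries held 23417980, 32426739, 24362143, 28122430, 30115549 and 17757341 counts, and the part of depth in the order was not tested. Of the other 14216 tested genes 104 (0.732%) had the exact reverse of this library order and 62 (0.436%) the same order. Among the latter was Itgav, an integrin subunit that releases latent TGF-β, with 140.6, 165.9 and 153.3 CPM in P-VITRO and 142.1, 160.2 and 168.0 CPM in PTR-VITRO. Itgav was singled out after its values were seen. These correlations, picked from 36 pairs among the 9 genes, describe 6 points that share library preparation and scaling.

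**Figure D3:**
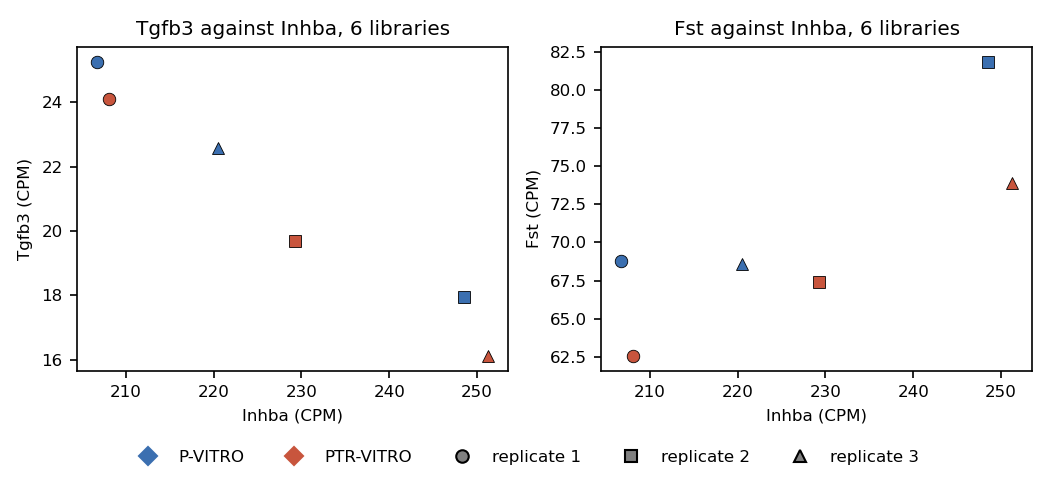
CPM of Tgfb3 (left) and of Fst (right) against CPM of Inhba in the 6 libraries, blue for P-VITRO and red for PTR-VITRO, with axes that do not start at 0. Tgfb3 steps down as Inhba steps up in every library of both groups, while Fst scatters.

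The genes whose library pattern was most like that of Tgfb2, among 11805 tested genes with a mean count of at least 50, were Acbd4 (Pearson 0.992 over 6 libraries), Gm9843 (0.991) and Clptm1 (0.991). Their log2 fold changes were -0.14, -0.20 and -0.07, all smaller than that of Tgfb2, and none passed the test. Within the 9 genes, Tgfb2 was most like Smad3 (0.900) and Tgfbr2 (0.862), pairs in which both genes separate the groups.

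In the rest of the pathway, 64 further genes were listed by role and 50 had enough counts to be tested. Only Inhbe was called, which made 1 of 50 against 0.246% of all tested genes called in either direction and 0.0985% called higher. Of the 50, 9 had an unadjusted p below 0.05, with 2 higher and 7 lower in PTR-VITRO, and 12 had groups that did not overlap. Over all tested genes these shares were 11.4% at that p, 6.13% at that p and lower, and 17.6% without overlap, and the difference was not tested. The median log2 fold change was -0.05, with 35 genes below 0 and 15 above.

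Inhbe encodes the activin βE subunit, a hepatokine gene that is also known to respond to cellular stress. It measured 13.2, 10.9 and 12.6 CPM in P-VITRO and 17.2, 19.5 and 18.5 CPM in PTR-VITRO. Every PTR-VITRO library was higher, and Inhbe rose by a log2 fold change of 0.59 ± 0.09 with an adjusted p of 0.0199 (edgeR). With 1 library left out the call was lost without P-VITRO replicate 3 (adjusted p 0.121), PTR-VITRO replicate 2 (0.159) or PTR-VITRO replicate 3 (0.0791), with fold changes of 0.62, 0.55 and 0.59. Of the other ligand genes, Gdf15 was the most abundant per kilobase (108.9 in P-VITRO and 105.1 in PTR-VITRO), and 7 of 12 listed, Nodal and Mstn among them, had too few counts to test.

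Of 10 tested genes that keep or release latent TGF-β, 0 were called. Thrombospondin 1 (Thbs1), which activates latent TGF-β, came closest with 614.3, 669.9 and 574.1 CPM in P-VITRO and 497.6, 529.3 and 529.6 CPM in PTR-VITRO. Its groups did not overlap, and its log2 fold change was -0.26 ± 0.05 with an adjusted p of 0.0888. Thbs1 was called by DESeq2, at an adjusted p of 2.81e-03, with the replicate block (0.0487) and with no filter on low counts (4.20e-08). These settings called 111, 68 and 400 genes over the whole table.

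Among 5 tested receptors and co-receptors 0 were called. Tgfbr3, the gene of betaglycan, had a log2 fold change of -0.26 ± 0.12 and an adjusted p of 0.448, with overlapping groups. It was called with no filter on low counts (0.0302), a setting that called 400 genes over the whole table. The activin receptors Acvr1b and Acvr2a had log2 fold changes of -0.19 and -0.07.

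Of 12 SMADs and cofactors 0 were called. Smad2, the partner of Smad3 below the receptors, had the opposite sign to Smad3. It measured 49.4, 47.1 and 49.5 CPM in P-VITRO and 53.2, 53.1 and 54.9 CPM in PTR-VITRO. The log2 fold change was 0.14 ± 0.04 with an adjusted p of 0.227. The groups of Smad2 did not overlap. Smad4, the shared partner, had a log2 fold change of 0.04. Tgif1, a corepressor gene and the most abundant of these per kilobase (32.3 in P-VITRO and 32.5 in PTR-VITRO), had one of 0.01 ± 0.03.

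Among 3 tested antagonists 0 were called. Decorin (Dcn), a matrix proteoglycan that binds TGF-β, measured 46.9, 35.8 and 44.0 CPM in P-VITRO and 33.2, 27.7 and 23.8 CPM in PTR-VITRO. All PTR-VITRO libraries were lower, with a log2 fold change of -0.56 ± 0.12 and an adjusted p of 0.0919, and DESeq2 called it at 7.40e-05. Dcn was also called with the replicate block (0.0326) and with no filter on low counts (1.84e-16). The same held when P-VITRO replicate 2 (0.0261) or PTR-VITRO replicate 1 (0.0249) was left out. Over the whole table DESeq2 called 111 genes, the replicate block 68, no filter 400, and these leave-outs 64 and 46. Pmepa1, a feedback inhibitor that the pathway induces, had a log2 fold change of 0.15 ± 0.08 and an adjusted p of 0.486.

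Of 20 tested target genes 0 were called, and 5 had an unadjusted p below 0.05, all with lower values in PTR-VITRO, where 6.13% of all tested genes passed in that direction. These were the genes of the collagen I chains Col1a1 (log2 fold change -0.18, adjusted p 0.155) and Col1a2 (-0.14, 0.140), of fibronectin, Fn1 (-0.18, 0.208), of connective tissue growth factor, Ccn2 (-0.19, 0.216), and of the transcription factor Junb (-0.11, 0.355). Of the 20, 4 were lower without overlap (these genes except Junb), where 9.33% of all tested genes were. Col1a1 was called by DESeq2 (adjusted p 0.0236), with the replicate block (0.0293) and without PTR-VITRO replicate 1 (0.0480). Fn1 was called with the replicate block (0.0348), and Col1a1, Col1a2, Fn1 and Ccn2 with no filter on low counts. Over the whole table DESeq2 called 111 genes, the replicate block 68, that leave-out 46 and no filter 400. The other 15 tested targets had log2 fold changes from -0.13 (Itgb6) to 0.15 (Pmepa1), among them the matrix genes Lox at -0.03 and Tgfbi at -0.04. The 20 had a median of -0.05.

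Fibroblasts also express collagen and decorin genes, so 4 fibroblast markers were set beside them. They summed to 88.2 to 91.1 CPM in P-VITRO and 84.1 to 85.9 CPM in PTR-VITRO, nearly all from Pdgfrb and Pdgfra. Pdgfrb measured 81.8, 83.2 and 78.4 CPM in P-VITRO and 76.6, 76.6 and 74.3 CPM in PTR-VITRO. Its groups did not overlap, with a log2 fold change of -0.10 and an unadjusted p of 0.0349, and it was not called. Pdgfra went the other way, with 7.62, 7.88 and 9.76 CPM in P-VITRO and 8.08, 9.32 and 9.82 CPM in PTR-VITRO. The groups of Pdgfra overlapped, and its log2 fold change was 0.10. Lum was at 0 in every library, and Dpt was at 0 in 5 of 6. The part of fibroblast transcripts in these results was not tested.

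**Figure D4:**
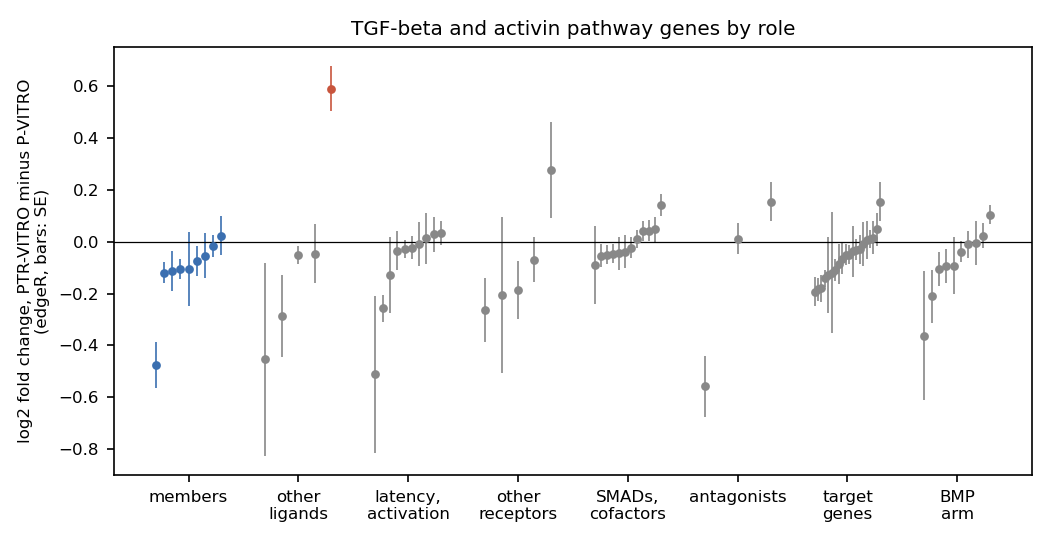
Log2 fold change of PTR-VITRO minus P-VITRO with its SE for the tested genes of each role list, sorted within a list, with the 9 genes in blue under members and Inhbe in red. Tgfb2 is the lowest of the blue points and most other points lie within 0.3 of 0.

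The BMP arm, the branch of the same family that signals through other SMADs, was set beside the 9 genes. Of its 18 listed genes 10 were tested and 0 were called, with 1 at an unadjusted p below 0.05, where 0.246% of all tested genes were called and 11.4% had such a p. Of the 10 log2 fold changes 8 were below 0 and 2 above, as 8 of the 9 genes were below 0. The median was -0.07, against -0.11 for the 9 genes and -0.0040 over all tested genes. The gene at that p was Bmpr1a, a BMP receptor, at 0.10 ± 0.04 and an adjusted p of 0.299. Bmp4, its most abundant gene per kilobase, measured 96.8, 114.9 and 85.7 CPM in P-VITRO and 96.9, 99.6 and 100.6 CPM in PTR-VITRO, with overlap. Whether the 9 genes and the BMP arm differed from each other was not tested.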

How the data were processed

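Polyadenylated RNA of 6 EMT6 samples, 3 per group, was sequenced from stranded libraries. The authors aligned reads with STAR 2.6.0a to GRCm38 and quantified genes with RSEM 1.3.1 (FastQC 0.11.5 was also run, per the submitters' processing notes), and deposited expected counts per gene, not scaled between samples. Whether RSEM was told the strand is not given in the sources used here. Here the expected counts were rounded, genes were filtered with filterByExpr (minimum count 10, total 15), and libraries were scaled by the upper quartile. The quasi-likelihood F test in edgeR 4.0.16 (R 4.3.3) compared PTR-VITRO with P-VITRO. The Benjamini-Hochberg adjustment ran over the 14217 tested genes, which held 99.9% of counts. Genes with adjusted p below 0.05 are called. Intervals are 95% intervals of the fitted log2 fold change. Lengths and positions came from GENCODE M21 on the same build. The edgeR fit with these settings was tested on simulated data.

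The 9 genes and all lists were chosen with earlier results of these data known. Named in the text are the 9, every gene of the lists with an unadjusted p below 0.05, the gene of highest CPM per kilobase in each role list, and the 3 genes most like the member with the smallest p; the other genes given in the text were chosen after their values were seen. Alternatives were TMM, no scaling factor, DESeq2 1.42.0, limma-voom 3.58.1, no filter, 10 counts in every sample, a replicate block and leaving out each library. Intervals and floors cover counting error or spread between libraries only.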

Additional observations from a re-analysis of the deposited data

How the results depend on the processing

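Over 7 other settings, 61 of 63 fold changes of the 9 genes held their sign and their side of the threshold. The 2 exceptions were Tgfb2, which passed with DESeq2 (log2 fold change -0.472) and with no filter (-0.4775), so that 1 of the 9 was called there. With 1 library left out, 0 of the 9 were called, 48 of 54 fold changes kept direction and 6 turned: Tgfb3 ran from -0.2659 to 0.0139, Inhba from -0.0397 to 0.1011, Tgfbr1 from -0.1288 to 0.0078 and Smad7 from -0.052 to 0.015. The cause was not tested.

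Over all genes 35 were called, and 111 with DESeq2, 400 with no filter, 54 where each library needed 10 counts and 8 to 64 with 1 library left out. Of the other pathway genes 1 was called, and 4 with DESeq2, 8 with no filter and 0 to 3 with 1 library left out. Of the BMP arm 1 was called with no filter. Bmp4, near 0, turned sign with no scaling factor (0.0076), DESeq2 (0.0002), limma-voom (0.0008) and 1 library left out (-0.0969 to 0.1183). No scaling moved the median of all genes outside -0.004 to 0.0084.

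Deviations of same-numbered libraries from their group means correlated at 0.109, 0.095 and -0.0556. Deviations from a mean of 3 libraries are tied to each other, so these values cannot settle whether the samples were paired. With the replicate block 68 genes were called, 0 of the 9 and 5 of the other pathway genes, and Bmp4 was at 0.0007. The count of the 9 genes lower without overlap, an alternative chosen after seeing the data, was 3 with no scaling factor and 3 to 5 with 1 library left out, where 7.53% and 12.8% to 17.8% of all tested genes were lower without overlap. Tgfb2 and Tgfbr1 had under 400 counts in each library.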
